A study of Homo sapiens with 12 samples.

Results

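The 33 genes described here encode proteins of DNA repair and of the DNA damage response, with an emphasis on homologous recombination. They are the rows of the count table that match a list of gene names, and the rule uses no measured value. All 33 were found among the 25435 symbols of the count table and all 33 passed the filter on low counts, which kept 13365 genes. The cells were LMSU, an established gastric cancer line of human origin with R175H mutant p53, and 12 mRNA libraries form 6 groups of 2. In the first arm, without doxycycline, p53 knockout cells (construct sg-1) stand against a knockout control (construct V2), and both constructs are marked GFP. In the second arm, with doxycycline, cells with p53 shRNA 1 and cells with p53 shRNA 2 stand against a scramble hairpin and against vector. The labels give R175H p53 as absent in the knockout and in both hairpin groups, and as present in the knockout control, scramble and vector. They do not say whether sg-1 cells are a clone or a pool, or what the vector holds. Nothing states that the 2 libraries of a group come from separate cultures, so each p measures the spread between libraries, which may be technical.

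Homologous recombination repairs a broken chromosome by copying the intact sister. The MRE11, RAD50 and NBN complex and EXO1 trim the break, BRCA1 with BARD1 and PALB2 brings in BRCA2, and strand exchange with the sister follows. The Fanconi anaemia proteins open crosslinks between strands, and the kinases ATM and ATR signal damage to CHEK2 and CHEK1. Many of these genes are known to be transcribed most in S phase, when a sister is present. Mutant p53 proteins such as R175H have largely lost sequence-specific DNA binding.

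Library totals ran from 9738094 to 16823246 counts. Levels are given as CPM, the count scaled to a common library size with TMM factors. Variation between libraries of a group beyond counting noise, as a coefficient, came to 15.6% for the 4 libraries without doxycycline. It was 3.08% for the 8 with it and 9.55% over all 12. As to the labelled cell type, the epithelial keratin genes KRT8 and KRT18 were present, but EPCAM and CDH1 reached at most 0.17 and 0.16 CPM in any library and the gastric genes TFF1 and TFF2 were at 0 in all 12. Summed over 9 fibroblast markers, the level was 2712 to 3516 CPM in the 4 libraries without doxycycline and 14940 to 18670 CPM in the 8 with it. Of 5 leukocyte markers, CD3E was at 0 in all 12 libraries and CD68 made up nearly the whole sum of 187.3 to 451.4 CPM. Of 3 endothelial markers, CDH5 was at 0 throughout and the sum was at most 1.54 CPM. In bulk RNA, fewer cells of a type and less RNA per cell cannot be told apart.

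The knockout of p53 was set against its control first. None of the 33 repair genes passed the test: 0 rose and 0 fell at an adjusted p below 0.05 (edgeR's quasi-likelihood test with Benjamini-Hochberg adjustment over 13365 genes), where 0.015% of all genes tested were called. DESeq2 also called 0 members, and 0 members had an unadjusted p below 0.05. A fit to the 4 libraries without doxycycline alone called 0 members and 0% of all genes. The log2 fold changes of the 33 ran from -0.27 (XRCC3) to 0.28 (BRCA2), with a median of 0.10 against a median of -0.01 over all genes tested. The smallest adjusted p was 0.78, for XRCC3.

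By role, BRCA1, a ubiquitin ligase that promotes recombination, was at 75.1 and 62.5 CPM in the knockout and at 52.8 and 68.4 CPM in the knockout control. BRCA2, the mediator of strand exchange, was at 42.9 and 25.4 CPM in the knockout and at 16.97 and 39.66 CPM in the control. For both genes the libraries of the groups overlapped, and for BRCA2 the 2 control libraries lay further apart than the group means. PALB2, which joins BRCA1 to BRCA2, was at 19.4 and 14.6 CPM in the knockout and 16.1 and 17.3 CPM in the control. RAD51C, which acts in strand exchange, was at 8.23 and 6.70 CPM in the knockout and 6.33 and 6.72 CPM in the control. RAD54L, the motor protein of strand invasion, was at 42.1 and 51.0 CPM in the knockout and 57.6 and 44.1 CPM in the control. All 3 overlapped between the groups.

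The libraries of the groups did not overlap for 3 of the 33 members (9.09%), while 23.2% of all genes tested did not overlap. XRCC3, which forms a complex with RAD51C, was at 35.4 and 34.0 CPM in the knockout, below the 45.6 and 37.8 CPM in the control (log2 fold change -0.27, SE 0.16, adjusted p 0.78). XRCC5, the Ku80 subunit of the end joining factor Ku, was at 406.7 and 400.2 CPM in the knockout, above the 376.7 and 390.7 CPM in the control. UNG, which removes uracil from DNA, was at 93.3 and 99.2 CPM in the knockout, above the 89.7 and 86.1 CPM in the control. None of these differences was called.

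**Figure D1:**
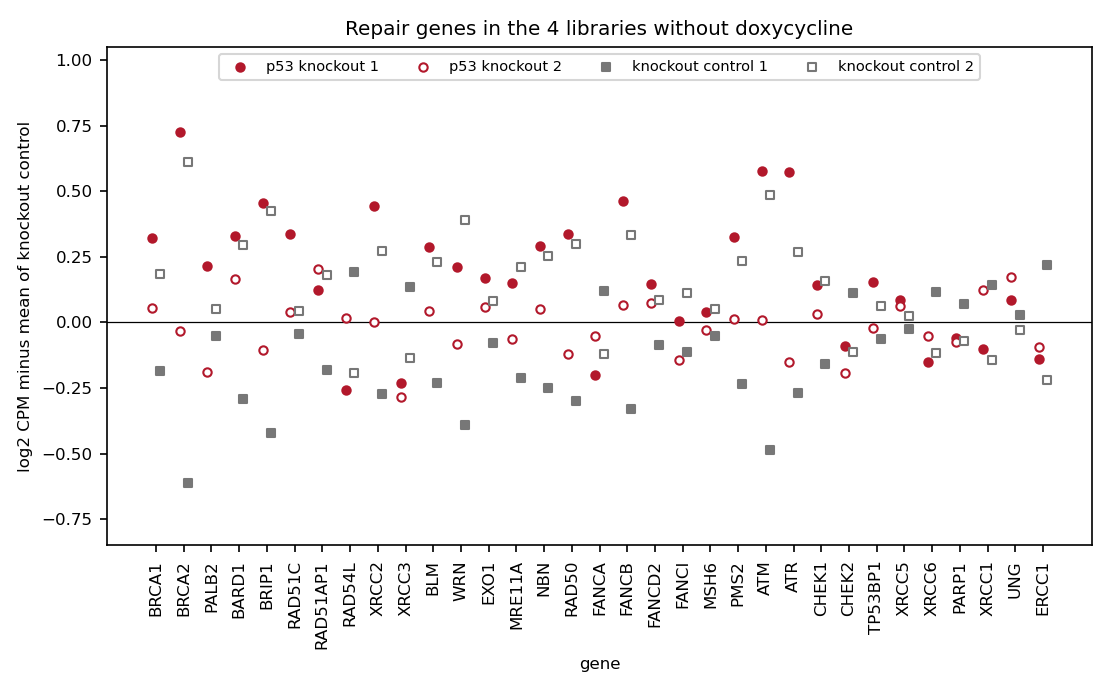
Levels of the 33 repair genes in the 4 libraries without doxycycline, as log2 CPM minus the mean of the 2 knockout control libraries (y axis), by gene (x axis); circles are the p53 knockout, squares the knockout control, filled symbols library 1 and open symbols library 2. For BRCA2 the 4 libraries were at 42.9 and 25.4 CPM in the knockout and 16.97 and 39.66 CPM in the control, and the groups overlap for all members but XRCC3, XRCC5 and UNG.

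This count rested on 1 library. Without knockout control library 2, the remaining control library being assumed to vary like the other groups, 9 members were called higher and 4 lower in the knockout, as were 4135 of 13662 genes in either direction. The 9 were BRCA1, BRCA2, BARD1, BRIP1, RAD51AP1, WRN, NBN, RAD50 and ATM, of which BRCA2 had the largest log2 fold change (0.999, SE 0.21, adjusted p 0.0030 by edgeR). The 4 were XRCC3, ERCC1, XRCC6 and FANCA, with log2 fold changes from -0.40 (XRCC3) to -0.22 (XRCC6). Leaving out knockout control library 1 or either knockout library gave 0 members. The 2 libraries of the knockout control and of the knockout differed from each other by a chi-square per degree of freedom of 34.4 and 9.99 over genes, against 1.56 to 2.31 in the 4 groups with doxycycline.

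The spread between libraries in that arm went along with transcript length. Among the 33 members, the log2 difference of library 1 minus library 2 had a Spearman rho with the longest coding transcript of 0.50 in the knockout and -0.52 in the knockout control. Over the 12181 tested genes with a length, rho was 0.53 in the knockout and -0.58 in the control, so the members followed the same pattern as other genes. These are correlations across genes, which share their libraries and are not independent replicates. The 7 members with a transcript above 7000 bases, among them BRCA2, ATM and ATR, had a median difference of 0.46 for knockout library 1 over 2 and of 0.53 for control library 2 over 1. The other 26 members had medians of 0.11 and 0.16. In the groups with doxycycline rho over the members lay between -0.15 and 0.22.

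**Figure D2:**
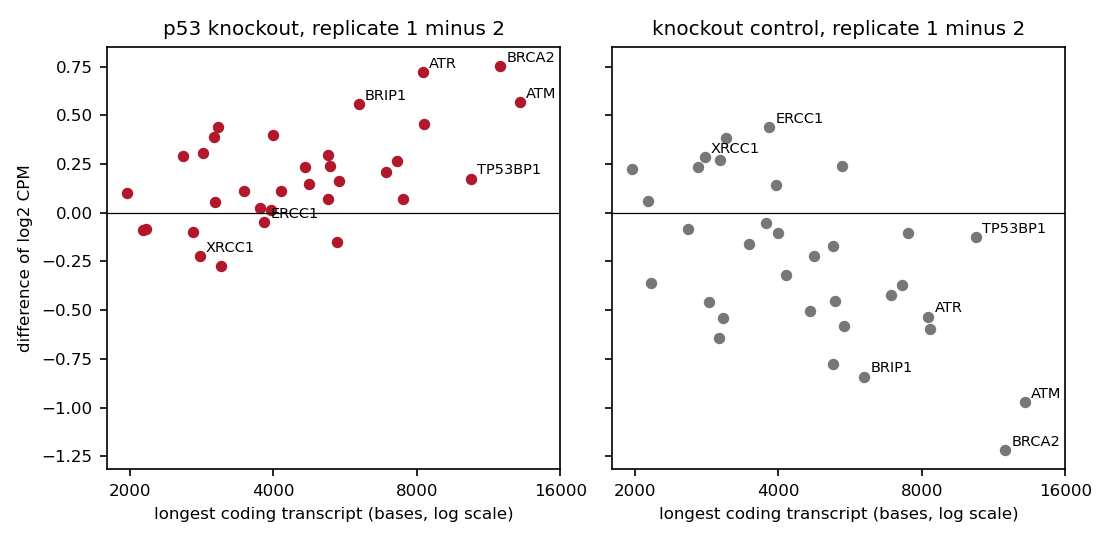
Log2 CPM of replicate library 1 minus library 2 (y axis) against the longest coding transcript of each of the 33 repair genes in GENCODE 29 (x axis, bases, log scale), for the p53 knockout on the left and the knockout control on the right; each point is a gene. Points climb with length in the knockout (rho 0.50) and descend in the control (rho -0.52).

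With doxycycline, 3 of the 33 genes rose and 0 fell with shRNA 1 against scramble. The share of members called higher was 9.09%, against 4.4% of all genes tested. RAD51AP1, which promotes strand pairing, was at 17.3 and 17.9 CPM with shRNA 1 and at 10.9 and 10.7 CPM in scramble. EXO1, the nuclease of end resection and mismatch repair, was at 5.57 and 6.75 CPM with shRNA 1 and at 2.59 and 2.40 CPM in scramble. BRCA1 was at 14.6 and 17.1 CPM with shRNA 1 and at 7.76 and 10.5 CPM in scramble. Both shRNA 1 libraries stood above both scramble libraries for all 3 genes, as they did for 4149 of the 13365 genes tested. By edgeR the log2 fold change was 0.70 for RAD51AP1 (SE 0.14, adjusted p 0.011), 1.30 for EXO1 (SE 0.28, adjusted p 0.015) and 0.79 for BRCA1 (SE 0.19, adjusted p 0.027). The median over the 33 members was 0.24, and over all genes tested it was 0.00. The number of members called fell with any 1 of the compared libraries left out, and so did the number over all genes tested.

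A fit to the 8 libraries with doxycycline alone, in which the spread is smaller, called 12 members higher and 3 lower with shRNA 1 than in scramble, against 16.2% and 16.9% of all genes. The members that joined the higher ones were BRCA2, BARD1, BRIP1, RAD54L, MRE11A, FANCA, FANCD2, FANCI and PARP1. The 3 lower ones were NBN, TP53BP1 and XRCC1. In that fit the helicase gene BRIP1 had a log2 fold change of 0.88 (SE 0.25, adjusted p 0.0051), with 4.58 and 4.71 CPM with shRNA 1 and 2.26 and 2.77 CPM in scramble.

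With shRNA 2, 0 of the 33 genes passed the test against scramble in either direction, where 7.74% of all genes were called. DESeq2 called 0 members as well, and 2 members had an unadjusted p below 0.05 by edgeR. BRCA1 was at 9.74 and 10.3 CPM with shRNA 2, within the range of the scramble libraries. EXO1 was at 2.54 and 4.001 CPM with shRNA 2, and its libraries overlapped those of scramble. RAD51AP1 was at 11.1 and 12.7 CPM with shRNA 2, both above scramble, with a log2 fold change of 0.14 (SE 0.15, adjusted p 0.65 by edgeR). The fit to the 8 libraries called 4 members higher, namely MSH6, ATM, XRCC1 and UNG, and 3 lower, namely NBN, FANCD2 and ATR, against 16.7% and 14.9% of all genes. ATM, the kinase that answers double-strand breaks, was at 97.5 and 86.1 CPM with shRNA 2 and at 64.0 and 67.7 CPM in scramble. In that fit its log2 fold change was 0.49 (SE 0.06, adjusted p 3.9e-08), while in the fit to all 12 libraries the adjusted p was 0.29.

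**Figure D3:**
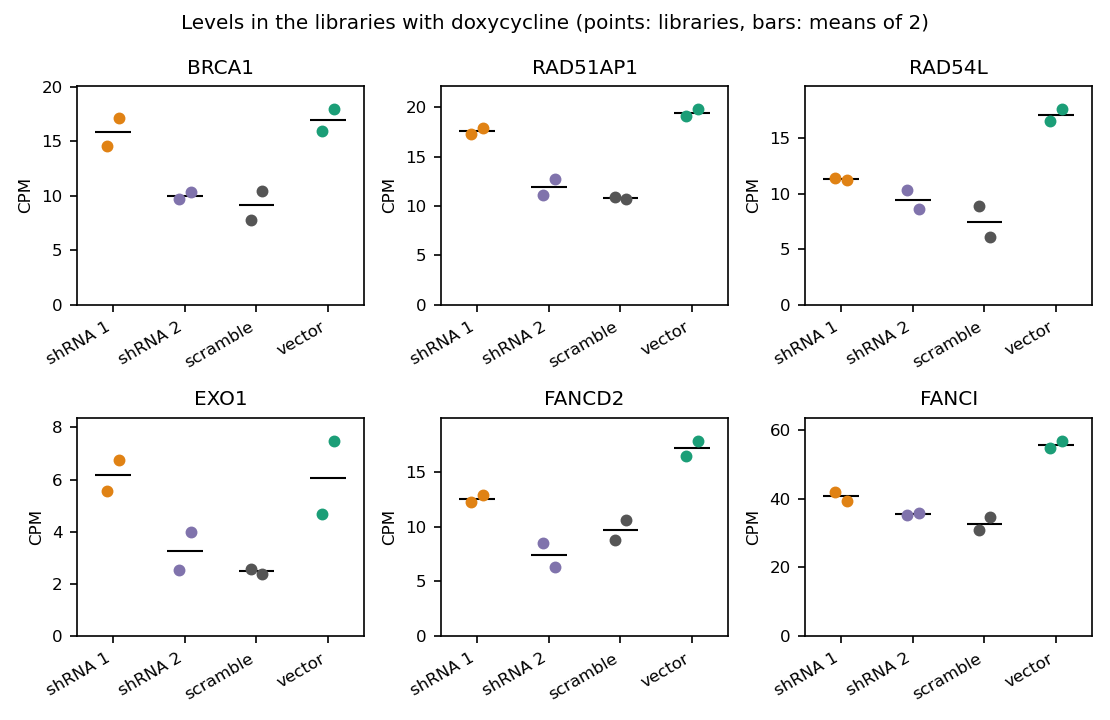
Levels of 6 repair genes in the 8 libraries with doxycycline, in CPM (y axis, from 0), for shRNA 1, shRNA 2, scramble and vector (x axis); points are libraries and bars are the means of 2. BRCA1, RAD51AP1 and EXO1 are higher with shRNA 1 than with shRNA 2 and in scramble, and vector is the highest group mean for all genes shown but EXO1, where shRNA 1 and vector overlap.

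For the mean of both hairpins against scramble, 0 of the 33 genes were called by edgeR, against 6.77% of all genes, although 5 had an unadjusted p below 0.05. DESeq2 called 1 member, EXO1 (log2 fold change 0.85, SE 0.27, adjusted p 0.028). The fit to the 8 libraries called 7 higher, namely BRCA1, BRIP1, RAD51AP1, RAD54L, EXO1, FANCI and ATM, against 14.5% of all genes. It called 1 lower, NBN, against 15.3% of all genes. NBN, the subunit that ties the MRE11 complex to ATM, was at 123.4 and 120.3 CPM with shRNA 1. It was at 126.3 and 116.3 CPM with shRNA 2 and at 136.0 and 148.8 CPM in scramble. All 4 hairpin libraries were below both scramble libraries, as they were for 1911 of the 13365 genes tested.

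Scramble itself stood below vector for many repair genes, a comparison of 2 controls that both keep p53. Of the 33 members, 8 fell and 0 rose in scramble (24.2% of members lower, against 8.16% of all genes). EXO1 and RAD54L had the largest falls among the 8. EXO1 was at 2.59 and 2.40 CPM in scramble and 4.68 and 7.48 CPM in vector, with a log2 fold change of -1.30 (SE 0.27, adjusted p 0.0068 by edgeR). RAD54L was at 8.89 and 6.06 CPM in scramble and 16.6 and 17.6 CPM in vector, with a log2 fold change of -1.20 (SE 0.20, adjusted p 0.0018). BRCA1 was at 7.76 and 10.5 CPM in scramble and 15.9 and 17.9 CPM in vector, with a log2 fold change of -0.89 (SE 0.19, adjusted p 0.0075). In all 3 genes both scramble libraries lay below both vector libraries, as they did for 4640 of the 13365 genes tested. RAD51AP1 was at 10.9 and 10.7 CPM in scramble and 19.1 and 19.8 CPM in vector, and its fold change was -0.85 on the log2 scale (adjusted p 0.0017).

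Among the Fanconi anaemia genes, 3 of 4 fell in scramble. FANCD2, which is ubiquitinated together with FANCI at crosslinks, was at 8.81 and 10.6 CPM in scramble and 16.4 and 17.8 CPM in vector, with a log2 fold change of -0.82 (SE 0.15, adjusted p 0.0032 by edgeR). FANCI was at 30.7 and 34.5 CPM in scramble and 54.6 and 56.8 CPM in vector (log2 fold change -0.77, SE 0.11, adjusted p 0.00063). FANCA, a subunit of the core complex that modifies them, was at 22.6 and 22.3 CPM in scramble and 33.1 and 31.5 CPM in vector (log2 fold change -0.52, SE 0.11, adjusted p 0.0072). The libraries of scramble and vector did not overlap for any of these 3. FANCB, the fourth, was not called, at 0.81 and 2.47 CPM in scramble and 3.39 and 3.96 CPM in vector. The checkpoint kinase gene CHEK2 was the last of the 8, at 8.33 and 7.71 CPM in scramble and 10.9 and 11.6 CPM in vector (log2 fold change -0.49, SE 0.15, adjusted p 0.0499). CHEK2 has pseudogene copies that can share reads, so its counts are less certain.

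In the fit to the 8 libraries, 20 members were lower and 4 higher in scramble than in vector, against 22.2% and 19.9% of all genes. The 4 higher ones were WRN, NBN, RAD50 and ATR. Neither MSH6 nor PMS2, the members listed under mismatch repair, was called in either fit. Leaving out any 1 of the 4 libraries left fewer members called, and also fewer genes over all tested.

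The scramble and vector groups also differed in genes of the cell cycle. Of all 13365 genes tested, 1090 (8.16%) were called lower in scramble and 949 higher. Of 16 mitosis genes, 15 were called lower and 0 higher in scramble, with summed levels of 1613 to 1665 CPM in scramble and 2638 to 2671 CPM in vector. Of 16 DNA replication genes, 13 were called lower and 1 higher, with sums of 504.4 to 515.9 CPM in scramble and 783.4 to 789.8 CPM in vector. Of the 14 repair genes taken as S-phase genes from general knowledge, 7 were called lower in scramble, with a median log2 fold change of -0.69, and of the other 19 members 1 was, with a median of -0.17. The S-phase list was drawn up with earlier results of these data known, so this split is not independent of them. The part of cell cycle differences in the repair genes was not tested.

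The promoters of EXO1, FANCD2 and FANCA are shown because these members fell both in scramble and with shRNA 2 against vector and hold a word of the E2F family, the factors of S-phase transcription. They run from 250 bases before to 50 bases after the annotated start site in RefSeq on GRCh38.p14, each on its gene's strand. The words searched, on both strands, were TTTCCCGC, TTTCGCGC, TTTGCCGC and TTTGGCGC, and the match is in capitals.
EXO1, chr1:241847954-241848253, plus strand: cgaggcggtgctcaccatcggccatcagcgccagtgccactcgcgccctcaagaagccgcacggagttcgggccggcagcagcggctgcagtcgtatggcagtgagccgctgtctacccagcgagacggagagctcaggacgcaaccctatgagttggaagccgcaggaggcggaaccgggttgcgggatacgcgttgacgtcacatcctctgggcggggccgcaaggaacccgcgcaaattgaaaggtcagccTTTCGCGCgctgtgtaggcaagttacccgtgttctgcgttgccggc
FANCD2, chr3:10026187-10026486, plus strand: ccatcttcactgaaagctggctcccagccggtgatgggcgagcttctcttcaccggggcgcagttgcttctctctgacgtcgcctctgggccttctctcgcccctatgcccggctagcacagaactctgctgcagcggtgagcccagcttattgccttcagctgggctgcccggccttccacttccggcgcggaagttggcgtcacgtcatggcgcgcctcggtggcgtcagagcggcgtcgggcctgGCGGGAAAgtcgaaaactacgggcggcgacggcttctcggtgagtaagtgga
FANCA, chr16:89816598-89816897, minus strand: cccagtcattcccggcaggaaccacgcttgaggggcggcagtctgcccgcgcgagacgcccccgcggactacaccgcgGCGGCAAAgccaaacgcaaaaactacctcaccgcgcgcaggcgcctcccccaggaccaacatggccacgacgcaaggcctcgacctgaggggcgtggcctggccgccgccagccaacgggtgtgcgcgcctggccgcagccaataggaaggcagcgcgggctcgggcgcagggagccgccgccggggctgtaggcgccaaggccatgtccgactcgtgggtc
The word began 4 bases after the start site in EXO1, 2 bases before it in FANCD2 and 172 bases before it in FANCA. It was also found in XRCC2, MSH6, PMS2 and XRCC6, in all in 7 of the 29 members with a promoter in the table (24.1%), against 3.3% of 27305 promoters. Of the 13 S-phase members with a promoter, 4 held it. RAD51AP1, RAD54L, BRCA1 and CHEK2, which fell in both comparisons as well, held none of these letters in this window. For BRCA1 the window was chr17:43170278-43170577. Each gene was searched at 1 annotated start site and not at any other, so a missing match covers that window alone. FANCI, which also fell in both, had no promoter in the table. XRCC2, MSH6, PMS2 and XRCC6 were called in neither comparison. The promoters shown were picked on both the fall and the word, so they cannot show a link. Other words were searched as well: CCAAT was in 17 of the 29 (58.6%, against 35.7% of all promoters) and TTTGAA in 3 (10.3%, against 15.4%). A match is a description of the sequence and not a bound site. The promoter build differs from hg19, the build of the counts, and no count was placed on it.

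Set against vector instead of scramble, the hairpin groups stood lower. With shRNA 2, 11 members fell and 0 rose (33.3% of members lower, against 11.7% of all genes). FANCD2 fell most, at 8.51 and 6.31 CPM with shRNA 2 and 16.4 and 17.8 CPM in vector (log2 fold change -1.21, SE 0.15, adjusted p 0.00020 by edgeR). RAD51C was at 1.15 and 1.15 CPM with shRNA 2 and 2.64 and 2.66 CPM in vector (log2 fold change -1.20, SE 0.30, adjusted p 0.016). Both genes were lower in both shRNA 2 libraries than in either vector library, as were 4831 of the 13365 genes tested. EXO1, RAD54L, BRCA1, RAD51AP1, CHEK2, FANCI, FANCA and MRE11A followed, with log2 fold changes from -0.90 (EXO1) to -0.51 (MRE11A and FANCA). MRE11A, the nuclease of its complex, was at 20.2 and 19.7 CPM with shRNA 2 and 27.4 and 29.5 CPM in vector. PARP1, the sensor of strand breaks, was the least changed at -0.31 (SE 0.08, adjusted p 0.021), with 59.0 and 56.3 CPM with shRNA 2 and 73.2 and 70.2 CPM in vector. Fewer members were called without any 1 of the compared libraries, as were fewer genes over all tested. The fit to the 8 libraries called 18 lower and 5 higher, against 24.1% and 22.7% of all genes, and the 5 were WRN, RAD50, MSH6, ATM and XRCC5. The mitosis genes summed to 1350 to 1382 CPM with shRNA 2 and the replication genes to 620.6 to 625.8 CPM, and their part in these falls was not tested.

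With shRNA 1, 4 members fell against vector and 0 rose (12.1% of members lower, against 7.26% of all genes). FANCI was at 42.0 and 39.4 CPM with shRNA 1 and 54.6 and 56.8 CPM in vector (log2 fold change -0.45, SE 0.11, adjusted p 0.018 by edgeR). CHEK1, the kinase downstream of ATR, was at 19.1 and 14.6 CPM with shRNA 1 and 23.4 and 25.7 CPM in vector (log2 fold change -0.54, SE 0.16, adjusted p 0.045). Both shRNA 1 libraries were below both vector libraries for these genes, as they were for 4557 of the 13365 genes tested. XRCC1, the scaffold of single-strand break repair, was at 54.5 and 57.3 CPM with shRNA 1 and 74.5 and 74.2 CPM in vector (log2 fold change -0.41, adjusted p 0.032). ERCC1, a subunit of a nuclease of excision and crosslink repair, was at 45.5 and 47.4 CPM with shRNA 1 and 62.1 and 63.0 CPM in vector (log2 fold change -0.43, adjusted p 0.048). The groups did not overlap for these either. BRCA1, EXO1 and RAD51AP1, which rose against scramble, had log2 fold changes of -0.10, -0.0061 and -0.14 against vector, all uncalled. None of these calls was kept without any 1 of the 4 compared libraries, and calls over all genes tested became fewer as well. The fit to the 8 libraries called 11 lower and 2 higher, ATR and XRCC5, against 21.7% and 19% of all genes.

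The mean of both hairpins against vector had 8 members lower and 0 higher (24.2% of members lower, against 10.4% of all genes). They were RAD51AP1, RAD54L, FANCA, FANCD2, FANCI, CHEK1, CHEK2 and ERCC1, with log2 fold changes from -0.83 (FANCD2) to -0.39 (FANCA and ERCC1). The comparisons with scramble and those with vector share the hairpin libraries, so they are not independent. The fit to the 8 libraries called 18 lower and 5 higher, against 24% and 21.2% of all genes. Without any 1 of the compared libraries, calls became fewer among the members and over all genes tested.

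**Figure D4:**
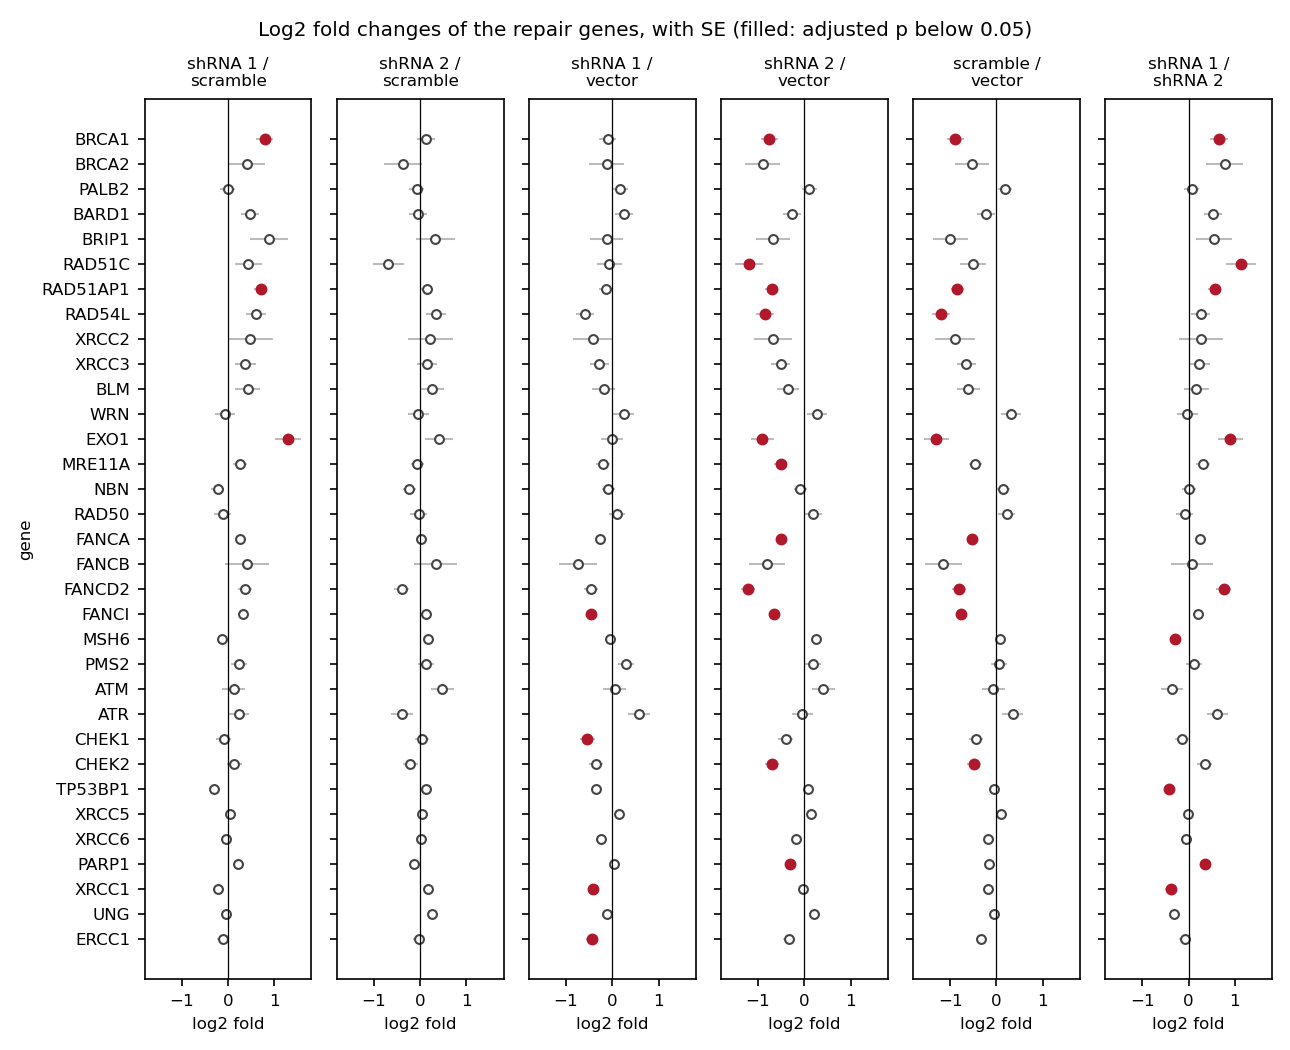
Log2 fold changes of the 33 repair genes (rows) in 6 comparisons of the groups with doxycycline, each named as numerator over denominator above its panel; points are fold changes of the fit to all 12 libraries, bars are their SE, and filled points have an adjusted p below 0.05. Filled points lie right of 0 for shRNA 1 over scramble (3 genes) and left of 0 for scramble over vector (8 genes) and for shRNA 2 over vector (11 genes).

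In the fit to all 12 libraries, 16 of the 33 members were called in at least 1 comparison within an arm and 17 in none. The share of all genes tested under this rule was not counted, so the 16 have no background to be read against. The fit to the 8 libraries with doxycycline called all of the 17 but PALB2 and PMS2 in at least 1 comparison. BRCA2, among the 17, was at 10.5 and 11.1 CPM with shRNA 1, 6.30 and 6.31 CPM with shRNA 2, 8.33 and 8.01 CPM in scramble and 11.6 and 11.9 CPM in vector. Its shRNA 2 libraries were the lowest and its vector libraries the highest. PALB2 was at 10.4 and 10.8 CPM with shRNA 1, 9.41 and 10.9 CPM with shRNA 2, 10.4 and 10.9 CPM in scramble and 9.05 and 9.77 CPM in vector, a narrow range in which shRNA 2 overlapped every other group. The other members of the 17 were BARD1, the partner of BRCA1, the helicase genes BRIP1, BLM and WRN, the recombination genes XRCC2 and XRCC3, NBN, RAD50, FANCB, PMS2, ATM, ATR, the Ku genes XRCC5 and XRCC6, and UNG.

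The hairpins were also set against each other. With shRNA 1, 6 members were higher than with shRNA 2 and 3 were lower (18.2% and 9.09% of members, against 7.07% and 7.21% of all genes). The higher ones were BRCA1, RAD51C, RAD51AP1, EXO1, FANCD2 and PARP1. FANCD2 was at 12.2 and 12.9 CPM with shRNA 1 and 8.51 and 6.31 CPM with shRNA 2 (log2 fold change 0.76, SE 0.16, adjusted p 0.0098 by edgeR). RAD51C was at 3.06 and 1.93 CPM with shRNA 1 and 1.15 and 1.15 CPM with shRNA 2 (log2 fold change 1.13, SE 0.33, adjusted p 0.040). PARP1 was at 72.2 and 74.8 CPM with shRNA 1 and 59.0 and 56.3 CPM with shRNA 2. All 3 were higher in both shRNA 1 libraries than in either shRNA 2 library.

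The lower ones were TP53BP1, XRCC1 and MSH6. TP53BP1, which shields broken ends from resection, was at 49.96 and 58.15 CPM with shRNA 1 and 77.7 and 67.2 CPM with shRNA 2 (log2 fold change -0.42, SE 0.11, adjusted p 0.027 by edgeR). MSH6, which recognises mismatches, was at 85.01 and 88.25 CPM with shRNA 1 and 103.8 and 109.6 CPM with shRNA 2 (log2 fold change -0.30, SE 0.09, adjusted p 0.039). The libraries of the hairpins did not overlap for either gene. Among all 13365 genes tested, 4579 lay higher and 4328 lower with shRNA 1 without overlap. Nearly all of these calls were lost when any 1 of the hairpin libraries was left out, and calls over all genes tested also became fewer. The fit to the 8 libraries called 11 higher and 5 lower, against 18.7% and 20.1% of all genes. The mitosis genes summed to 1683 to 1724 CPM with shRNA 1 and to 1350 to 1382 CPM with shRNA 2. Of the 16, 6 were called higher with shRNA 1, against 7.07% of all genes. The replication genes summed to 590.9 to 608.5 CPM with shRNA 1 and to 620.6 to 625.8 CPM with shRNA 2, with 1 of the 16 called higher and 1 lower. The part of either list in the repair genes was not tested.

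The effect of the knockout minus that of the mean hairpin against scramble differed for 0 of the 33 members by edgeR, against 1.1% of all genes. DESeq2 called 0 members too, and 2 had an unadjusted p below 0.05. Without knockout control library 2 the test called 3 members higher and 3 lower, and 3342 of 13662 genes in either direction.

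The repair genes also differed between the arms of the study. The 4 libraries without doxycycline were all above the 8 with it for 25 members (75.8%, against 27.2% of all genes) and all below for 2, ATM and XRCC1 (6.06%, against 25.5%). The ranges overlapped for WRN, NBN, RAD50, FANCB, PMS2 and TP53BP1. In the test of the knockout control against the mean of scramble and vector, a comparison added after the levels had been seen, 26 members were higher and 3 lower (78.8% and 9.09%, against 34.8% and 33% of all genes). All 10 homologous recombination members and all 4 Fanconi anaemia members were among the higher ones. The arms differ in doxycycline and in construct, and the labels state no batch of culture or library. The parts of doxycycline, construct and any other difference between the arms cannot be told apart.

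EXO1 showed the largest log2 fold change of that test, 3.03 (SE 0.17, adjusted p 4.3e-08 by edgeR), with 36.1 and 33.4 CPM in the knockout and 30.3 and 33.9 CPM in the knockout control against 2.40 to 7.48 CPM over the 8 libraries with doxycycline. XRCC2, a gene of strand exchange, followed at 2.83 (SE 0.26), with 11.1 and 16.3 CPM in the knockout control, 0.81 and 1.95 CPM in scramble and 2.11 and 3.03 CPM in vector. BRIP1 was at 16.14 and 29.02 CPM in the knockout control, 2.26 and 2.77 CPM in scramble and 5.43 and 4.70 CPM in vector (log2 fold change 2.65). These 3 genes had no overlap between the knockout control and either control with doxycycline. Of the 13365 genes tested, 4508 also lay higher in the knockout control without overlap. BRCA1 had a log2 fold change of 2.28 (SE 0.14), BRCA2 of 1.52 (SE 0.28) and PALB2 of 0.73 (SE 0.13), so the fold change differed among genes that act together. BARD1 was at 18.02 and 27.07 CPM in the knockout control, 8.25 and 7.86 CPM in scramble and 9.13 and 9.65 CPM in vector (log2 fold change 1.36, SE 0.15). The helicase gene BLM was at 14.1 and 19.3 CPM in the knockout control, 3.88 and 3.37 CPM in scramble and 5.36 and 5.69 CPM in vector (log2 fold change 1.89, SE 0.18). Neither gene overlapped between the knockout control and the other controls.

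Outside recombination, ATR, the kinase that answers stalled forks, was at 32.1 and 46.6 CPM in the knockout control, 21.8 and 25.4 CPM in scramble and 18.02 and 19.11 CPM in vector (log2 fold change 0.90, SE 0.19). XRCC6, the Ku70 subunit, was at 510.2 and 433.8 CPM in the knockout control, 231.8 and 227.3 CPM in scramble and 265.1 and 259.3 CPM in vector (log2 fold change 0.94, SE 0.07). Both were higher in each knockout control library than in any scramble or vector library. UNG was at 89.7 and 86.1 CPM in the knockout control, 24.4 and 23.4 CPM in scramble and 26.5 and 23.4 CPM in vector (log2 fold change 1.85, SE 0.08).

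Not all members followed. ATM was lower in the knockout control, at 28.6 and 56.2 CPM against 64.0 and 67.7 CPM in scramble and 65.6 and 72.5 CPM in vector (log2 fold change -0.68, SE 0.22, adjusted p 0.018 by edgeR). XRCC1 was lower as well, at 47.3 and 38.7 CPM against 66.5 and 64.1 CPM in scramble and 74.5 and 74.2 CPM in vector (log2 fold change -0.69, SE 0.10, adjusted p 6.7e-05). RAD50, the ATPase of the MRE11 complex, was the third, at 54.8 and 82.8 CPM against 96.6 and 98.2 CPM in scramble and 83.4 and 84.0 CPM in vector (log2 fold change -0.40, SE 0.16, adjusted p 0.045). ATM and RAD50 have long transcripts (13147 and 8306 bases). Their log2 differences of knockout control library 1 minus library 2 were -0.97 and -0.59, and the part of length was not tested. In knockout control library 2, RAD50 was close to vector. The remaining subunits of its complex differed in direction: MRE11A was higher in the knockout control (log2 fold change 0.75, SE 0.12), and NBN was uncalled (-0.25, SE 0.12). PMS2, which has many pseudogene copies and so uncertain counts, TP53BP1 and WRN were uncalled too.

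The S-phase members accounted for 14 of the 26, all 14 being higher in the knockout control, while of the other 19 members 12 were higher and 3 lower. Beside them, 15 of the 16 mitosis genes and all 16 replication genes were called higher. Of all genes tested, 34.8% were called higher and 33% lower. The replication genes summed to 2808 to 3043 CPM in the knockout and 2757 to 3200 CPM in the knockout control, against 504.4 to 789.8 CPM in the 8 libraries with doxycycline. The mitosis genes summed to 3699 to 3980 CPM in the knockout and 3354 to 3772 CPM in the knockout control, against 1350 to 2671 CPM with doxycycline. The 9 fibroblast markers summed to 2712 to 3155 CPM in the knockout control, against 16060 to 16850 CPM in scramble and 15090 to 15120 CPM in vector. The part of any of these in the repair genes was not tested, and the S-phase list was drawn up with earlier results of these data known.

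**Figure D5:**
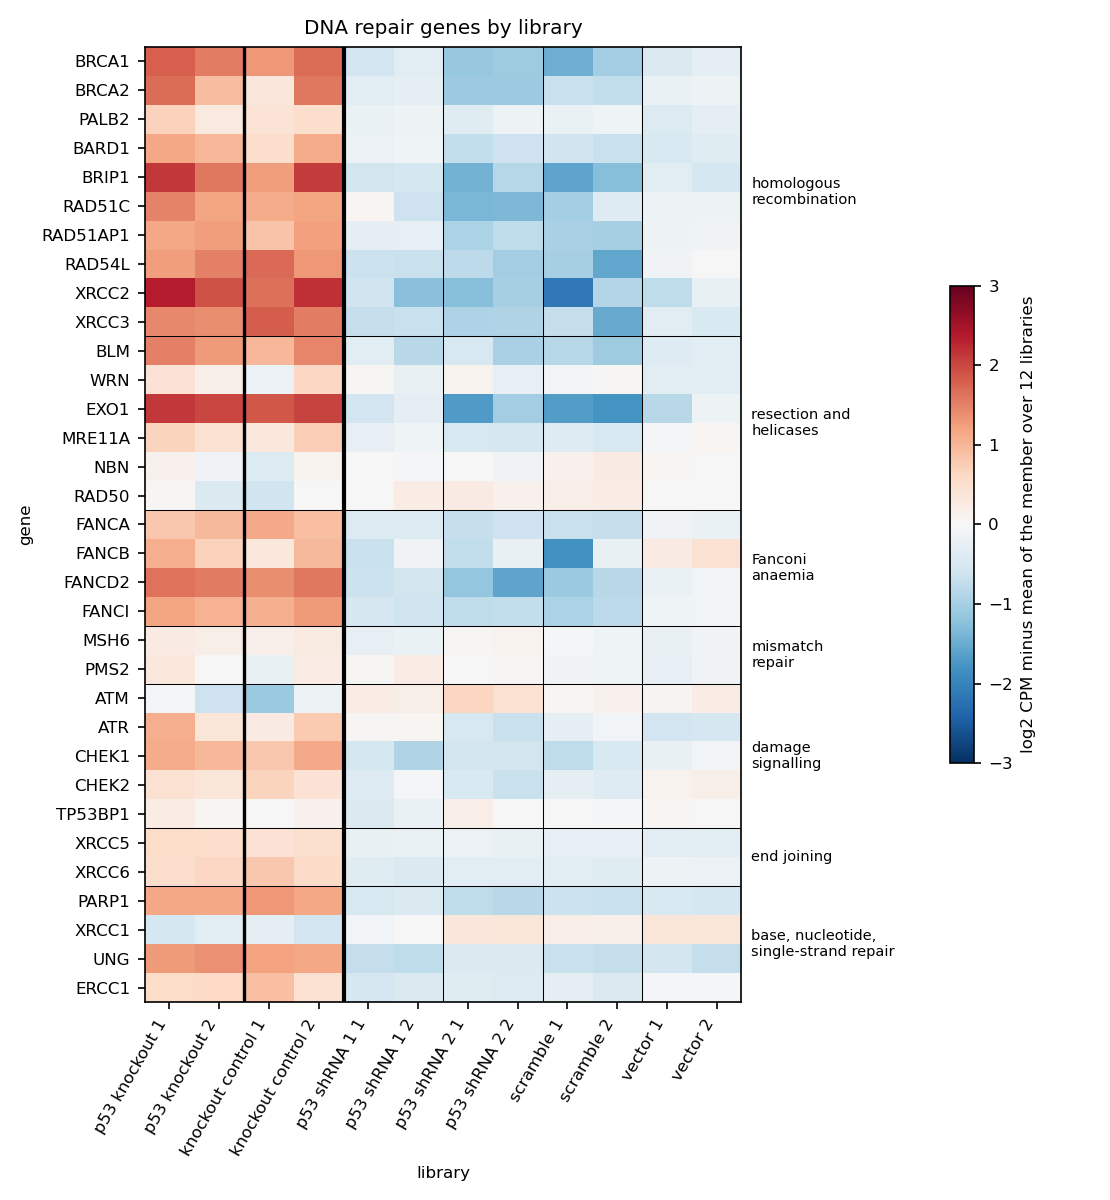
Levels of the 33 repair genes (rows, grouped by role) in the 12 libraries (columns), coloured by log2 CPM minus the gene's mean over the 12 libraries, with red above and blue below that mean. The 4 columns at the left, without doxycycline, are red for most rows, and ATM, XRCC1, NBN and RAD50 are among the exceptions.

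Beyond the 33, 100 further repair genes were listed, of which 98 were tested. None was called in the knockout (edgeR, with 5 at an unadjusted p below 0.05, and 0 by DESeq2). Of the 98, 6 were higher and 0 lower with the mean of both hairpins than in scramble. Against vector, 1 was higher and 17 lower. Over all 13365 genes, 416 were higher and 489 lower against scramble, and 1074 higher and 1390 lower against vector. With scramble against vector, 1 was higher and 18 lower, where 949 and 1090 of all 13365 genes were. With the knockout control against the mean of scramble and vector, 64 were higher and 10 lower, against 34.8% and 33% of all genes. The median log2 fold change of scramble against vector was -0.13 for these genes and -0.45 for the 33 members.

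Some counts may include reads of neighbouring genes. In GENCODE 29, exons of 13 of the 33 members overlap exons of a gene on the opposite strand, which is protein-coding for 10, namely ATM, ERCC1, FANCA, FANCD2, FANCI, MRE11A, MSH6, RAD54L, TP53BP1 and XRCC3. The strand setting of the counting is unknown here, so reads of such pairs may be shared. Exons of 2 members, RAD50 and XRCC1, overlap exons of a protein-coding gene on the same strand, where no strand setting separates the reads.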

How the data were processed

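mRNA libraries of LMSU cells were sequenced, and the authors deposited whole-number read counts by gene symbol for all 12 in a single file. Per the submitters' processing notes, bcl2fastq, STAR 2.5 and hg19 were used. No source used here gives the counting mode, the strand setting or the annotation. From there the tests used edgeR 4.0.16 under R 4.3.3: filterByExpr (minimum count 10), TMM, 1 coefficient for each of the 6 groups over all 12 libraries, and the two-sided quasi-likelihood F test, with Benjamini-Hochberg adjustment over 13365 genes and a call at an adjusted p below 0.05. The procedure was tested on simulated data. Alternatives were DESeq2 1.42.0, RLE factors, no filter, a minimum count of 30, each arm alone, a replicate block, and each library left out. Transcript lengths and exon overlaps came from GENCODE 29 and promoters from RefSeq. Figures were drawn with matplotlib 3.10.9. The rule for the members uses names alone, but the members and lists were chosen with earlier results of these data known. Every member is accounted for. Library values are given for those called in a comparison within an arm by the fit to all 12 libraries, and for BRCA1, BRCA2, PALB2, RAD51C and RAD54L. Of the other repair genes the 4 with the smallest adjusted p in each of the comparisons of the mean hairpin and of scramble against vector are named. The level of the targeted gene and of a few other genes is not reported here.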

Additional observations from a re-analysis of the deposited data

Results flagged for a closer look

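The effects of the 2 hairpins differed for 9 of the 33 repair genes by the test of the difference itself (edgeR's quasi-likelihood test, adjusted p below 0.05 over all genes), as they did for 1909 of 13365 genes. Nearly all of the 9 calls were lost when any 1 of the hairpin libraries was left out, which leaves 1 library in a group. Calls over all genes tested also became fewer. The log2 difference, shRNA 1 minus shRNA 2, was positive for RAD51C (1.13), EXO1 (0.90), FANCD2 (0.76), BRCA1 (0.66), RAD51AP1 (0.56) and PARP1 (0.35). It was negative for TP53BP1 (-0.42), XRCC1 (-0.39) and MSH6 (-0.30). For each of the 9, the libraries of shRNA 1 and shRNA 2 did not overlap. Over all 13365 genes tested, the same held for 4579 higher and 4328 lower with shRNA 1. Groups of 2 libraries are too small for a check of single outlying libraries.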

How the results depend on the processing

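No call changed direction under any alternative. Of the 43 calls in the comparisons within the arms, all 43 were kept in the fit to 1 arm alone and with the stricter filter. RLE factors and no filter each kept 42, DESeq2 kept 40 and a replicate block kept 36. Counts of members called moved as follows. With no filter they were 3 and 13 for the mean hairpin against scramble and against vector, 5 and 7 for shRNA 1 against them, 1 and 18 for shRNA 2, and 16 for scramble against vector. In the fit to the 8 libraries with doxycycline these counts were 8, 23, 15, 13, 7, 23 and 24, and 16 for shRNA 1 against shRNA 2. DESeq2 gave 1 for the mean hairpin against scramble. With no filter and in the fit to the 8 libraries, calls over all genes tested rose as well. With each library left out in turn, counts ran from 0 to 13 for the knockout, 0 to 0 for the mean hairpin against scramble, 2 to 5 for it against vector, 0 to 1 and 0 to 0 for shRNA 1 against scramble and against vector, 0 to 0 and 4 to 7 for shRNA 2, 0 to 1 between the hairpins, 5 to 6 for scramble against vector, 0 to 6 for the knockout minus the hairpins, and 27 to 29 for the knockout control against the mean of scramble and vector. Fits with a library left out have 1 library in a group, and in the comparisons with doxycycline calls over all genes became fewer too. Replicate numbers did not pair the samples, since the correlation of their deviations ran from -0.469 to 0.156. A replicate block gave 1 call for shRNA 1 against vector and 6 for shRNA 1 against shRNA 2. In the 4 libraries without doxycycline the correlation was -0.469, and there a block on crossed numbers, added after seeing the data, called 0 members and 72 genes, against 0 members and 2 genes for a block on equal numbers. Members under a few CPM, such as XRCC2, FANCB and RAD51C, are limited by depth in the groups with doxycycline.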

Other observations

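Among the repair genes outside the 33, genes with a small adjusted p for the mean of both hairpins against scramble were GTF2H3 of the repair and transcription factor TFIIH (log2 fold change 0.51, adjusted p 0.0074 by edgeR), the flap nuclease gene FEN1 (0.86, adjusted p 0.013) and the fork protection gene TIMELESS (0.37, adjusted p 0.019). Against vector the 4 with the smallest adjusted p were TIMELESS (-0.79, adjusted p 4.0e-05), the glycosylase gene NEIL3 (-1.04, adjusted p 7.0e-05), the helicase gene ERCC2 (-0.93, adjusted p 0.00055) and the damage mediator gene MDC1 (-0.65, adjusted p 0.00062). TIMELESS was thus called higher against scramble and lower against vector. In scramble against vector they were TIMELESS (-1.17, adjusted p 1.5e-05), NEIL3 (-0.87, adjusted p 0.00086), the damage sensor gene DDB2 (-0.77, adjusted p 0.0019) and FEN1 (-1.11, adjusted p 0.0022).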
